A study of Mus musculus with 21 samples.

Results

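Transcripts of 41 genes that duplicate DNA in S phase were followed through 7 groups of regenerating neonatal mouse hearts. The genes were chosen by symbol, as the members of 6 steps of chromosome replication, out of 18762 genes in the deposited table. The steps were licensing (10 genes), helicase activation (4), the replication fork (14), nucleotide supply and uracil removal (5), chromatin assembly (4) and the regulators of the G1/S transition (4). Of the 41 genes, 40 passed a filter of at least 1 FPKM in at least 3 libraries and were tested. The exception was Orc1, the largest subunit of the origin recognition complex, at 0.33 to 0.78 FPKM in the 21 libraries.

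All libraries came from the heart apex of ICR mice at postnatal day 7. All animals had undergone apical resection, the surgical removal of the tip of the ventricle, at 1 day of age, so the injury is shared by the controls. The 6 drug groups were injected under the skin, over 7 consecutive days by the labels. 1 of them received isoproterenol, which stimulates β-adrenergic receptors and speeds the heart, and the other 5 each received an anti-arrhythmic drug. Amiodarone blocks potassium channels among others, metoprolol and propranolol block β-adrenergic receptors, lidocaine blocks sodium channels, and ivabradine blocks the pacemaker current. The control group is labelled with the resection only, and what its animals were injected with is not given. Each group had 3 libraries. The labels give no dose and no genotype, and whether each library is a different animal is not given, so p-values reflect only how far the libraries of a group differ. The comparison of each drug with the control asks which transcripts of the resected heart differed with that drug.

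A cell prepares to replicate in G1, when the origin recognition complex, Cdc6 and Cdt1 load the Mcm2-7 ring on DNA at each origin. At the start of S phase, Cdc45 and the GINS complex turn that ring into the running helicase, and polymerases, the PCNA clamp, its loader and the ligase copy both strands behind it. E2F factors switch on most of these genes at the G1/S border. Mouse cardiomyocytes stop dividing in the first days after birth, and a resected neonatal heart is a standard model of the time when they, and the vessel and stromal cells around them, still replicate.

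Spellings of the E2F site were looked for in the promoters of these genes. RefSeq promoter windows (build GRCm38.p6, 250 bases before to 50 after the first listed start) were matched for 34 of the 41 genes and not for Ccne2, Gins1, Gins2, Mcm4, Pole, Prim2 and Rfc2. The letters searched were TTTCCCGC, TTTGGCGC, TTTGCCGC and TTTCGCGC, on both strands. At least 1 of them stood in 11 of the 34 windows (32.4%), against 4.2% of the 9897 windows of tested genes and 2.3% of all 27025 windows of that length. The genes were Cdc6, Cdt1, E2f2, Mcm3, Mcm5, Mcm6, Mcm7, Orc1, Pola1, Pold1 and Rfc3. CCAAT, the NF-Y box, stood in 20 windows (58.8%, against 39.0% of tested genes and 37.9% of all windows). GGGCGG, the GC box, stood in 24 (70.6%, against 64.9% and 35.9%), and TTTGAA, the CHR element of mitotic genes, in 3 (8.8%, against 11.6% and 18.1%). The median GC content was 58.0% in the members' windows and 61.0% in those of tested genes. Stretches are shown for 5 licensing genes and 2 fork genes that hold the E2F letters, and for Pcna and Rrm2, 2 of the genes with the smallest p below, which hold none. They are written 5′ to 3′ on the strand of the gene. Capitals mark the E2F letters, and in Pcna and Rrm2 the CCAAT box. In the stretches shown the E2F letters begin between -165 (Mcm7) and -10 (Rfc3) from the start site, and a further match in each of these 2 windows, at or after the start, is not shown. The matches of Cdt1, E2f2, Mcm3 and Pold1 lie after the start. In Mcm5 and Mcm6 matches on opposite strands overlap. The stretches are Cdc6 (chr11:98907993-98908040, + strand), Mcm5 (chr8:75109336-75109387, + strand), Mcm6 (chr1:128359725-128359835, - strand), Mcm7 (chr5:138172021-138172068, - strand), Orc1 (chr4:108579407-108579453, + strand), Pola1 (chrX:93632266-93632313, - strand), Rfc3 (chr5:151651209-151651238, - strand), Pcna (chr2:132253243-132253287, - strand) and Rrm2 (chr12:24708184-24708228, + strand).
Cdc6: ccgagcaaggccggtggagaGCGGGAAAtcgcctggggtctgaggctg
Mcm5: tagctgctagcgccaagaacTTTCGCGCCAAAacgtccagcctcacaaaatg
Mcm6: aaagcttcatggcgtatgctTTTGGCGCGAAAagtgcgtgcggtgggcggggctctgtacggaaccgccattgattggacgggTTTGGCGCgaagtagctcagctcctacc
Mcm7: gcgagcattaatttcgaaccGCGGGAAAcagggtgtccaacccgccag
Orc1: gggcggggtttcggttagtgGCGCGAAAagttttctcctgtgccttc
Pola1: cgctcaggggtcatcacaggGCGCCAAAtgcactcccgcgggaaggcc
Rfc3: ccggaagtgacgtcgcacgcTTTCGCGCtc
Pcna: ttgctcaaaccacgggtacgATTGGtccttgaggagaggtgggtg
Rrm2: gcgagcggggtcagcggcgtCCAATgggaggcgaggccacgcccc
A match describes the letters and is no evidence that a factor bound there.

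The deposited values are FPKM, which scale fragments by transcript length and by the mapped total, with no read counts, so the depth behind a value is not known and its counting error cannot be given. Relative depth, read from the steps between low values of 67 genes, ran from 0.96 to 1.032, and the sum of FPKM from 496304 to 552905 a library. That depth partly followed the groups, at 0.96 to 0.973 in controls, 1.011 to 1.032 with propranolol and 0.973 to 1.007 in the other libraries. Within groups, libraries correlated across the 12433 genes tested with r between 0.988 and 0.996. The tissue was heart throughout, with the cardiomyocyte gene Tnnt2 at 5102 to 6984 FPKM in the 21 libraries. Transcripts of other tissues were highest in 4 libraries. Control 3 held the most Mylpf of skeletal muscle (62.7 FPKM), isoproterenol 3 the most Myl7 of the atrium (176 FPKM), amiodarone 2 the most Sftpc of the lung (222 FPKM) and propranolol 1 the most Alb of the liver (10.8 FPKM). Counts of called genes are therefore also given without these 4 libraries. Skeletal muscle transcripts were not confined to control 3. Their markers summed to 17.9 to 133 FPKM in the controls, 3.80 to 5.84 FPKM with isoproterenol and 66.4 FPKM in amiodarone 3. Leaving out the 4 libraries thus does not remove all other-tissue transcripts. Differences are given on the log2(FPKM + 1) scale, which understates the change of low genes, as a drug minus the control ± the standard error of limma, with p-values adjusted by the Benjamini-Hochberg method over all 12433 genes tested and 0.05 as the threshold.

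With isoproterenol, transcripts of every replication step were lower. Of the 40 tested genes 38 fell and 0 rose against the control (limma), where 25.8% of all genes fell and 8.38% rose. At an unadjusted p below 0.05 the counts were the same, 38 and 0, and the share of all genes at that threshold was not counted. The median difference of the 40 genes was -0.55, against -0.09 for all genes tested. In 39 of the 40 genes all 3 isoproterenol libraries lay below all 3 controls, as they did in 32.8% of all genes. The exception was Pola1, the catalytic subunit of polymerase α, at 1.14, 1.57 and 1.03 FPKM with isoproterenol and 1.40, 1.82 and 1.71 FPKM in controls. Pola1 (-0.24 ± 0.12, adjusted p = 0.12, limma) and Ccne2, a cyclin E (-0.35 ± 0.18, adjusted p = 0.13), were the 2 genes that did not pass. Summed over the 41 genes, expression was 339 to 405 FPKM in the isoproterenol libraries, 441 to 552 FPKM in the anti-arrhythmic libraries and 569 to 612 FPKM in the controls. In bulk tissue, fewer replicating cells and less of these RNAs per cell cannot be told apart. Without the 4 libraries with other-tissue transcripts, 28 of the 40 genes fell, where 11.3% of all genes did.

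**Figure D1:**
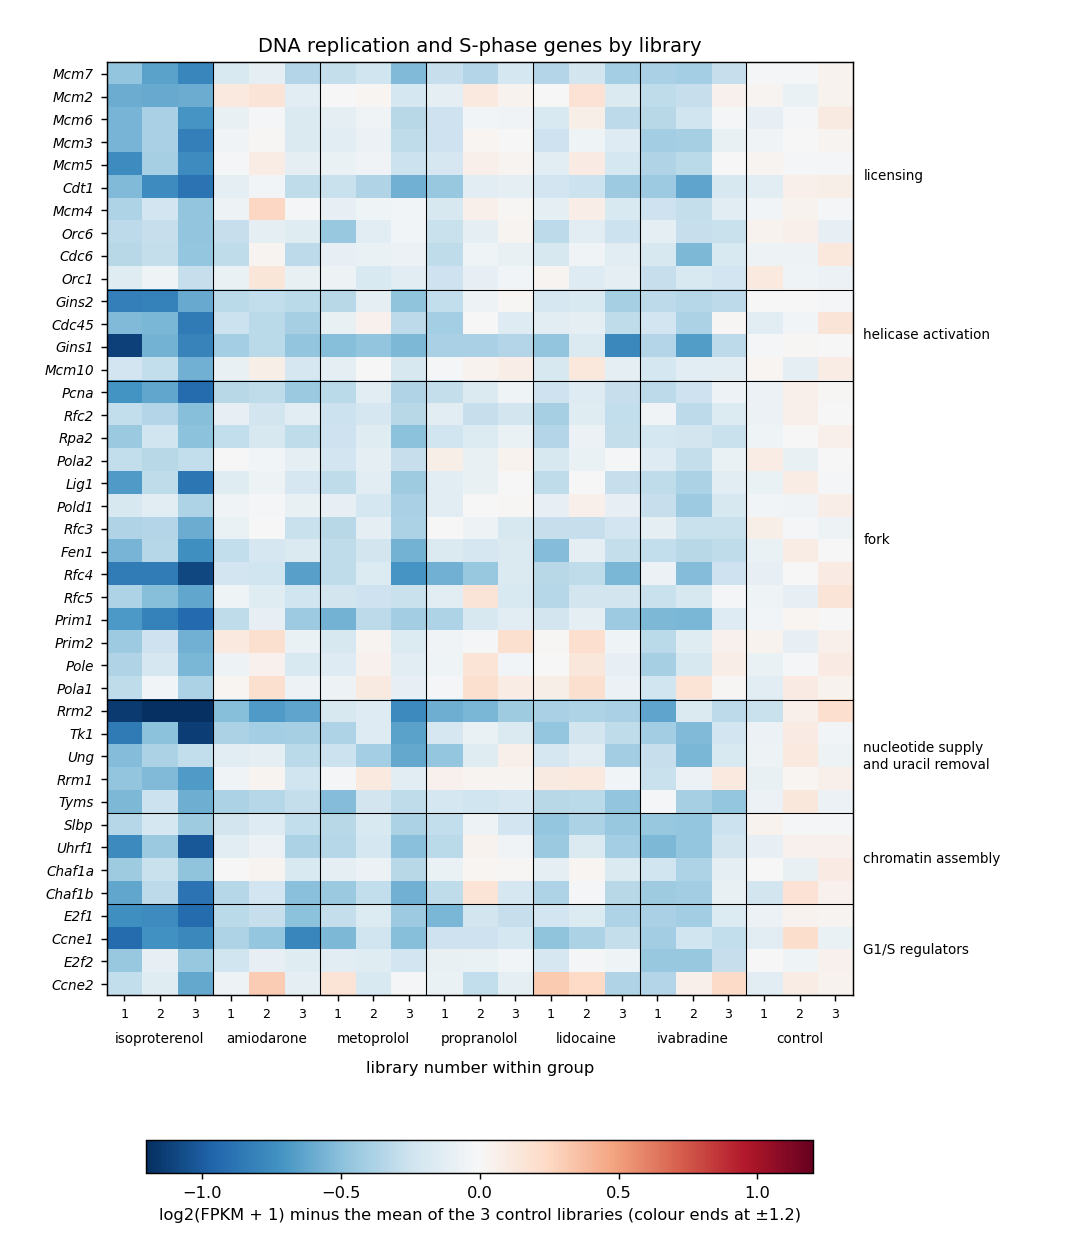
Difference of each library from the mean of the 3 controls on the log2(FPKM + 1) scale (colour, ending at ±1.2) for the 41 genes, in rows by step and by level within it, and the 21 libraries, in columns by group. The isoproterenol columns are blue in every step, while the anti-arrhythmic columns are paler, with rows such as Mcm2 and Rrm1 near the control level and rows such as Slbp and Gins1 blue with every drug.

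Nucleotide supply held the largest difference. Rrm2, the small subunit of ribonucleotide reductase that limits the making of deoxynucleotides, stood at 20.3, 16.9 and 16.5 FPKM with isoproterenol, against 38.3, 48.4 and 53.3 FPKM in controls. With the anti-arrhythmics it stood at 32.2, 28.5 and 29.5 FPKM (amiodarone), 40.3, 41.3 and 26.9 FPKM (metoprolol), 30.5, 31.3 and 34.2 FPKM (propranolol), 35.01, 35.7 and 35.1 FPKM (lidocaine) and 29.4, 40.9 and 37.1 FPKM (ivabradine). The 3 isoproterenol libraries were the lowest of the 21, and the controls lay apart from every group but metoprolol and ivabradine. Rrm2 differed by -1.33 ± 0.14 with isoproterenol (adjusted p = 1.4e-05, limma), to 17.9 ± 2.12 FPKM with isoproterenol against 46.7 ± 7.64 FPKM in controls (SD, n = 3 each). Tk1, the thymidine kinase of the salvage path, stood at 13.1, 17.1 and 10.6 FPKM with isoproterenol, 15.3, 18.7 and 22.99 FPKM in the anti-arrhythmic libraries (lowest, median and highest of 15) and 23.2, 26.2 and 23.9 FPKM in controls (-0.82 ± 0.13, adjusted p = 0.00017). Its isoproterenol and control libraries did not overlap, and all 15 anti-arrhythmic libraries were below the controls. For this gene and those below, the share of all genes with every anti-arrhythmic or every drug library below the controls was not counted. All 5 genes of the step fell with isoproterenol, with a median of -0.56, among them the thymidylate synthase gene Tyms (-0.46 ± 0.11) and Rrm1, the large reductase subunit (-0.56 ± 0.09). Ung, the glycosylase that removes uracil from DNA, stood at 15.4, 17.2 and 18.3 FPKM with isoproterenol, 14.5, 18.8 and 23.6 FPKM in the anti-arrhythmic libraries and 21.7, 24.6 and 21.7 FPKM in controls (-0.40 ± 0.12, adjusted p = 0.019). Its call was lost without control 2 (adjusted p = 0.082), without isoproterenol 1 (0.071), after rescaling (0.088) and with a covariate of 4 Y-linked genes (0.074).

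Licensing genes fell in 9 of 9 cases with isoproterenol, with a median of -0.59. Mcm7, a subunit of the helicase ring and the most abundant of them, stood at 21.9, 19.4 and 17.6 FPKM with isoproterenol and 30.6, 30.3 and 31.8 FPKM in controls. It stood at 27.00, 28.6 and 23.95 FPKM with amiodarone, 25.2, 26.1 and 21.04 FPKM with metoprolol, 25.3, 24.03 and 26.5 FPKM with propranolol, 23.9, 26.3 and 22.98 FPKM with lidocaine and 23.3, 23.1 and 25.4 FPKM with ivabradine. All 18 drug libraries were below all 3 controls. The ring subunit Mcm2 gave another picture, at 13.6, 13.5 and 13.7 FPKM with isoproterenol, 16.9, 21.2 and 23.9 FPKM in the anti-arrhythmic libraries and 21.6, 19.9 and 21.8 FPKM in controls. Its 3 isoproterenol libraries lay below the other 18, and the anti-arrhythmic range held the control range. Mcm6 stood at 14.7, 16.7 and 13.2 FPKM with isoproterenol, 17.3, 20.3 and 23.3 FPKM in the anti-arrhythmic libraries and 20.6, 21.9 and 23.9 FPKM in controls, with the isoproterenol libraries again the lowest. The differences with isoproterenol were -0.63 ± 0.08 for Mcm7 (adjusted p = 5.8e-05), -0.60 ± 0.10 for Mcm2 (0.00038) and -0.55 ± 0.11 for Mcm6 (0.001), by limma. The loader Cdt1 (-0.72 ± 0.12), Mcm5 (-0.64 ± 0.11) and Mcm3 (-0.59 ± 0.11) fell, and so did Mcm4 (-0.36 ± 0.09), the origin recognition subunit Orc6 (-0.36 ± 0.10) and the loader Cdc6 (-0.36 ± 0.11). The calls of Orc6 and Cdc6 were lost without isoproterenol 3, without the 4 libraries with other-tissue transcripts and with the Y-linked covariate, and that of Cdc6 also without control 3, with adjusted p of up to 0.063 and 0.13 over the refits.

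All 4 helicase activators fell with isoproterenol, with the largest step median, -0.69. Gins2, a subunit of the GINS ring, stood at 7.21, 7.25 and 8.52 FPKM with isoproterenol and 13.6, 13.5 and 13.4 FPKM in controls (-0.74 ± 0.09, adjusted p = 2.5e-05, limma). With the other drugs it stood at 10.6, 10.8 and 10.6 FPKM (amiodarone), 10.5, 12.3 and 9.37 FPKM (metoprolol), 10.8, 12.9 and 13.7 FPKM (propranolol), 11.6, 11.8 and 9.95 FPKM (lidocaine) and 10.6, 10.4 and 10.7 FPKM (ivabradine). The isoproterenol libraries were the lowest of the 21, and of the anti-arrhythmic libraries propranolol 3 lay above the controls. Gins1, which binds it in the ring, stood at 2.94, 4.78 and 3.91 FPKM with isoproterenol, 4.03, 5.47 and 6.61 FPKM in the anti-arrhythmic libraries and 7.45, 7.66 and 7.62 FPKM in controls (-0.83 ± 0.13, adjusted p = 0.00019). All 18 drug libraries were below all 3 controls. Cdc45, which joins GINS to the Mcm ring, stood at 5.18, 5.09 and 3.96 FPKM with isoproterenol, 5.70, 6.62 and 8.26 FPKM in the anti-arrhythmic libraries and 7.18, 7.69 and 8.95 FPKM in controls (-0.64 ± 0.12, adjusted p = 0.00081). Its isoproterenol libraries were the lowest, and the anti-arrhythmic and control ranges overlapped. Mcm10, which helps the helicase start, fell by 0.37, a call lost without isoproterenol 3, without the 4 libraries with other-tissue transcripts and with the 2 groups fitted alone (adjusted p of up to 0.19 over the refits).

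At the fork 13 of 14 genes fell with isoproterenol, with a median of -0.43. Pcna, the sliding clamp that holds polymerases on DNA, was the most abundant of the 41 genes, at 51.8, 55.2 and 44.5 FPKM with isoproterenol and 81.7, 89.04 and 86.2 FPKM in controls (-0.76 ± 0.08, adjusted p = 1.7e-05, limma). It stood at 67.6, 69.3 and 62.7 FPKM with amiodarone, 68.1, 77.6 and 66.6 FPKM with metoprolol, 70.2, 75.8 and 82.7 FPKM with propranolol, 71.7, 76.6 and 70.3 FPKM with lidocaine and 68.7, 71.9 and 82.2 FPKM with ivabradine. The isoproterenol libraries were again the lowest of all, and the highest propranolol and ivabradine libraries reached the lowest control. The 4 measured subunits of the clamp loader fell, Rfc4 (-0.93 ± 0.15), Rfc5 (-0.50 ± 0.09), Rfc3 (-0.43 ± 0.09) and Rfc2 (-0.38 ± 0.08). Rfc2 stood at 21.1, 20.2 and 18.04 FPKM with isoproterenol, 19.5, 22.2 and 25.2 FPKM in the anti-arrhythmic libraries and 24.8, 27.3 and 26.1 FPKM in controls (adjusted p = 0.0011). Rpa2, of the complex that coats single-stranded DNA, stood at 11.8, 13.7 and 11.4 FPKM with isoproterenol, 11.3, 13.8 and 15.6 FPKM in the anti-arrhythmic libraries and 15.8, 16.3 and 17.1 FPKM in controls (-0.39 ± 0.09, adjusted p = 0.0023). For both genes the isoproterenol and anti-arrhythmic libraries overlapped, and the isoproterenol libraries lay below the controls. Both primase subunits fell, Prim1 (-0.81 ± 0.11) and Prim2 (-0.42 ± 0.11). So did the ligase Lig1 (-0.62 ± 0.12), the flap nuclease Fen1 (-0.54 ± 0.10), Pola2 of polymerase α (-0.31 ± 0.07) and Pole, the leading-strand polymerase (-0.37 ± 0.11). Pold1, the catalytic subunit of polymerase δ, stood at 10.2, 10.6 and 8.89 FPKM with isoproterenol, 8.42, 10.9 and 12.3 FPKM in the anti-arrhythmic libraries and 11.5, 11.4 and 12.5 FPKM in controls (-0.23 ± 0.08, adjusted p = 0.035). It had the largest adjusted p of the 38, and the call was lost in 8 of 31 refits, among them those without isoproterenol 3 (adjusted p = 0.18), control 3 (0.13) or control 2 (0.053), after rescaling (0.21) and without the 4 libraries with other-tissue transcripts (0.41). That of Pole was lost without isoproterenol 3, without control 3, without those 4 libraries and after rescaling, with adjusted p of up to 0.26 over the refits. The calls of Rpa2 (adjusted p = 0.064) and Prim2 (0.12) were lost without those 4 libraries.

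Chromatin assembly genes fell in 4 of 4 cases, with a median of -0.50. Slbp, which binds the stem-loop of replication-dependent histone mRNA, stood at 12.2, 13.4 and 11.4 FPKM with isoproterenol and 16.2, 15.4 and 15.6 FPKM in controls (-0.33 ± 0.07, adjusted p = 0.0028, limma). With the other drugs it stood at 13.4, 14.03 and 12.6 FPKM (amiodarone), 12.3, 13.7 and 11.9 FPKM (metoprolol), 12.6, 15.04 and 13.3 FPKM (propranolol), 11.1, 11.8 and 11.2 FPKM (lidocaine) and 11.2, 11.1 and 12.97 FPKM (ivabradine). All 18 drug libraries were below all 3 controls, a rule whose share of all genes was not counted, and the isoproterenol libraries lay within the range of the other drugs. Uhrf1, which carries maintenance methylation to new strands, stood at 6.58, 8.41 and 5.37 FPKM with isoproterenol, 7.86, 9.26 and 12.3 FPKM in the anti-arrhythmic libraries and 11.02, 12.3 and 12.3 FPKM in controls (-0.74 ± 0.13, adjusted p = 0.00052). Chaf1a, the large subunit of the histone chaperone CAF-1, stood at 4.89, 5.58 and 4.64 FPKM with isoproterenol, 5.13, 6.34 and 7.06 FPKM in the anti-arrhythmic libraries and 6.86, 6.44 and 7.44 FPKM in controls (-0.39 ± 0.09, adjusted p = 0.0026). In both genes the isoproterenol and control libraries did not overlap. The partner of Chaf1a, Chaf1b, fell by 0.61. The calls of both CAF-1 genes were lost without the 4 libraries with other-tissue transcripts, at adjusted p of 0.076 for Chaf1a and 0.097 for Chaf1b.

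Of the G1/S regulators 3 of 4 fell, with a median of -0.58. E2f1, an activator that binds E2F sites, stood at 7.92, 7.82 and 6.85 FPKM with isoproterenol and 13.1, 14.3 and 14.2 FPKM in controls (-0.80 ± 0.10, adjusted p = 2.5e-05, limma). It stood at 10.9, 11.3 and 9.59 FPKM with amiodarone, 11.2, 12.3 and 9.98 FPKM with metoprolol, 9.20, 11.8 and 11.3 FPKM with propranolol, 11.7, 12.2 and 10.5 FPKM with lidocaine and 10.4, 10.1 and 12.3 FPKM with ivabradine. The 3 groups of libraries did not overlap, with isoproterenol lowest, the 15 anti-arrhythmic libraries between and the controls highest. Ccne1, a cyclin E that drives entry into S phase, stood at 2.01, 2.45 and 2.34 FPKM with isoproterenol, 2.33, 3.41 and 3.92 FPKM in the anti-arrhythmic libraries and 4.21, 5.61 and 4.41 FPKM in controls (-0.81 ± 0.11, adjusted p = 6.4e-05). All 18 drug libraries were below the controls. E2f2, another activator, stood at 1.45, 2.15 and 1.45 FPKM with isoproterenol, 1.46, 2.03 and 2.30 FPKM in the anti-arrhythmic libraries and 2.36, 2.24 and 2.49 FPKM in controls (-0.34 ± 0.09, adjusted p = 0.0084), and its call was lost without isoproterenol 3 (adjusted p = 0.052), without the 4 libraries with other-tissue transcripts (0.15) and with the 2 groups fitted alone (0.066). The median difference was -0.49 over the 10 tested genes with the letters, of which 9 fell, and -0.60 over the 23 without, of which 23 fell.

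**Figure D2:**
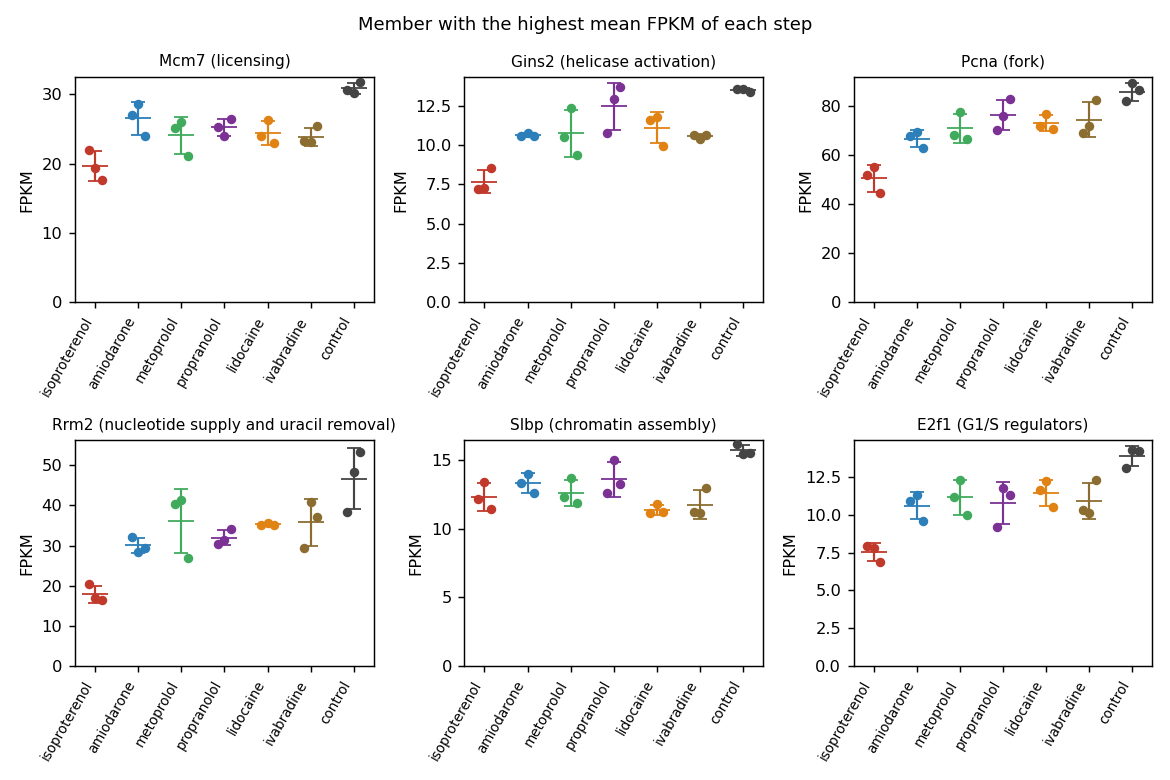
FPKM of the gene with the highest mean of each step in every library (points), with the group mean and SD (bars, n = 3), by group. For Gins2, Pcna, Rrm2 and E2f1 the isoproterenol libraries are the lowest and the controls the highest or nearly so, while for Slbp every drug group lies below the controls and the isoproterenol points lie among those of the other drugs.

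Set against the mean of the 5 anti-arrhythmic groups, a difference that includes no control value, isoproterenol still gave lower replication transcripts. Of the 40 genes 30 fell and 0 rose (limma), where 13.3% of all genes fell and 9.51% rose. At an unadjusted p below 0.05 it was 36 and 0, and the share of all genes at that threshold was not counted. The control libraries enter only the spread and the filter of that fit, and 29 genes fell without control 3. The median was -0.33 over the 40 genes and -0.01 over all genes tested. In 14 genes the 3 isoproterenol libraries lay below all 15 anti-arrhythmic libraries, as they did in 5.34% of all genes. These were Cdc45, E2f1, Gins2, Mcm10, Mcm2, Mcm5, Mcm6, Pcna, Pola2, Prim1, Rfc4, Rfc5, Rrm1 and Rrm2. By step, 7 of 9 licensing genes (median -0.41), 4 of 4 helicase activators (-0.41), 12 of 14 fork genes (-0.29), 3 of 5 nucleotide genes (-0.49), 2 of 4 chromatin genes (-0.30) and 2 of 4 G1/S regulators (-0.38) fell. The difference was -0.88 ± 0.11 for Rrm2 (adjusted p = 3.8e-05), -0.55 ± 0.07 for Rrm1 (3.8e-05), -0.56 ± 0.08 for Mcm2 (1e-04) and -0.51 ± 0.06 for Pcna (3.9e-05). The 10 genes that did not pass were Ccne2, Cdc6, Chaf1b, E2f2, Orc6, Pold1, Rpa2, Slbp, Tyms and Ung, and Slbp differed least (-0.02 ± 0.06, adjusted p = 0.84). Without the 4 libraries with other-tissue transcripts 16 genes fell, where 5.79% of all genes did, and 20 fell without isoproterenol 3 alone. Both of these refits also have fewer libraries, and the effect of that cannot be told apart from that of the other-tissue transcripts. For the count of 20, and for the 29 without control 3, the shares of all genes are not given here.

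**Figure D3:**
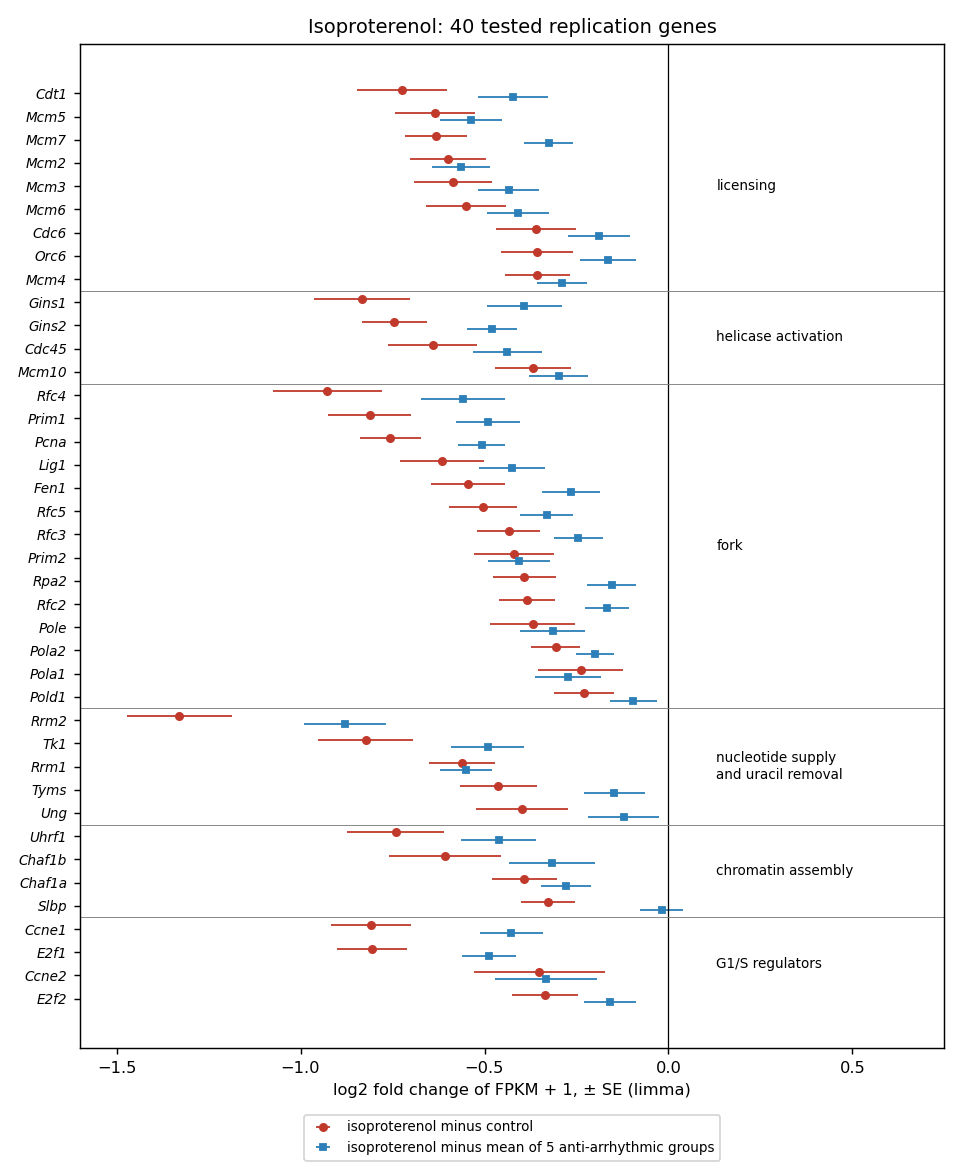
Difference (limma, ± SE) on the log2(FPKM + 1) scale of isoproterenol minus control (circles) and isoproterenol minus the mean of the 5 anti-arrhythmic groups (squares) for the 40 tested genes, by step. All 80 points lie left of 0; the 2 points nearly meet for Mcm2 and Rrm1 and lie far apart for Slbp, Rpa2 and Tyms.

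The anti-arrhythmic drugs gave fewer calls against the control, all of them falls. With metoprolol 19 of the 40 genes fell and 0 rose, where 22% of all genes fell and 9.48% rose (limma; 25 and 0 at an unadjusted p below 0.05). With lidocaine it was 16 and 0, against 26.6% and 10.6% of all genes (20 and 0 unadjusted). With ivabradine it was 16 and 0, against 19.1% and 7.91% (28 and 0 unadjusted). With amiodarone 10 genes fell and 0 rose, against 20.6% and 8.47% of all genes (16 and 0 unadjusted), and with propranolol 5 and 0, against 19.8% and 6.98% (8 and 0 unadjusted). At the adjusted threshold the shares for lidocaine, amiodarone and propranolol are thus nearer to, or below, those of all genes. The shares of all genes at the unadjusted threshold were not counted, so the unadjusted counts have no background to be set against. The medians of the 40 genes were -0.17 with amiodarone, -0.27 with metoprolol, -0.11 with propranolol, -0.24 with lidocaine and -0.28 with ivabradine, where all genes gave -0.08 to -0.10. All 40 genes had a negative difference with metoprolol and ivabradine, 35 with amiodarone, 34 with lidocaine and 33 with propranolol. The share of all genes with a negative difference was not counted, and the median of all genes was negative with each drug. These counts of signs therefore cannot be read as particular to the replication genes. These 5 comparisons share the 3 control libraries with one another and with isoproterenol, so their directions are not independent. Macrophage markers were also lower with these drugs, in 4 to 7 of 11 cases, and their part in the falls was not tested. The counts moved with single control libraries. Without control 2 they were 5 (amiodarone), 7 (metoprolol), 2 (propranolol), 5 (lidocaine) and 8 (ivabradine) of 40, where the shares of all genes were 11.7% (amiodarone), 13.7% (metoprolol), 12% (propranolol), 19.3% (lidocaine) and 13.3% (ivabradine). Without control 3 they were 6 (amiodarone), 12 (metoprolol), 1 (propranolol), 7 (lidocaine) and 7 (ivabradine), where the shares were 14.3% (amiodarone), 16.3% (metoprolol), 13.3% (propranolol), 20.6% (lidocaine) and 13.2% (ivabradine). So the amiodarone, propranolol and lidocaine counts were near or below those of all genes in both refits. The metoprolol count without control 2 and the ivabradine count without control 3 were little above the shares of all genes. Single drug libraries moved the counts too, to 5 without amiodarone 1 (13.3% of all genes), 6 without amiodarone 3 (17.7%), 7 without metoprolol 3 (16.1%), 2 without propranolol 1 (13.9%), 3 without propranolol 2 (12.9%), 7 without lidocaine 1 (22.8%) or 3 (23.1%) and 5 without ivabradine 2 (13.9%). All of these were near or below the shares of all genes. Without the 4 libraries with other-tissue transcripts the counts were 4 (amiodarone), 14 (metoprolol), 0 (propranolol), 8 (lidocaine) and 10 (ivabradine), where the shares of all genes were 5.99% (amiodarone), 15.4% (metoprolol), 8.18% (propranolol), 19.8% (lidocaine) and 12.6% (ivabradine).

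Some genes were called with most drugs. E2f1 and Gins1 fell with all 6, as did 6.48% of all genes, and Ccne1, Gins2, Mcm7, Slbp and Tyms with 5. These are 7 of 40 genes, where 12.4% of all genes fell with 5 or 6 drugs. The count with all 6 drugs was thus near the share of all genes, and that with 5 or 6 drugs was little above it. All 6 comparisons use the same controls. Slbp had the smallest p with lidocaine (-0.43 ± 0.07, adjusted p = 0.00035, limma) and ivabradine (-0.39 ± 0.07, adjusted p = 0.0011), where it was as low as or lower than with isoproterenol. Mcm7 had it with metoprolol (-0.35 ± 0.08, adjusted p = 0.0059), Ccne1 with amiodarone (-0.54 ± 0.11, adjusted p = 0.0024) and Rrm2 with propranolol (-0.52 ± 0.14, adjusted p = 0.013). Refits with the anti-arrhythmics were followed for 19 of the genes. Of the calls among these, those of Slbp and Mcm7 with metoprolol, lidocaine and ivabradine held in each, as did Gins1 with metoprolol, E2f2 with ivabradine, and Ccne1, E2f1 and Pcna with amiodarone. With propranolol 0 of 5 calls did. The call of Rrm2 was lost without control 3, and those of E2f1, Mcm7, Gins1 and Rfc2 without propranolol 1 or propranolol 2, among others. The largest adjusted p over the refits was 0.17 for Rrm2, 0.16 for E2f1, 0.1 for Mcm7, 0.19 for Gins1 and 0.23 for Rfc2.

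Other genes were called lower with isoproterenol alone. There were 12 of these, Mcm2, Mcm4, Mcm5, Mcm6, Orc6, Cdc45, Mcm10, Prim2, Pole, Lig1, Rrm1 and Chaf1a, where 7.01% of all genes met the same rule, and 5 of the 12 are licensing genes. In 11 of the 12, all but Orc6, the difference between isoproterenol and the mean of the anti-arrhythmics itself passed the test. That call held in each refit for Mcm2, Mcm5, Mcm6, Cdc45 and Rrm1. It was lost in some refits for the others, with limma adjusted p of up to 0.066 (Mcm4), 0.17 (Mcm10), 0.18 (Pole), 0.051 (Prim2), 0.076 (Lig1) and 0.086 (Chaf1a). Rrm1 shows the pattern most plainly and was picked out after its values were seen. It stood at 13.8, 13.2 and 11.9 FPKM with isoproterenol, 16.1, 19.98 and 21.3 FPKM in the anti-arrhythmic libraries and 18.3, 19.9 and 20.5 FPKM in controls. Its difference from the control was -0.56 ± 0.09 with isoproterenol (adjusted p = 0.00021) and -0.08 to 0.06 with the other drugs, where that of Rrm2 was -0.61 to -0.37. The 2 genes were not tested against each other, and Rrm2 was not called with metoprolol (adjusted p = 0.055) or ivabradine (0.06). For Mcm2 the difference with the anti-arrhythmics was -0.18 to 0.05, and for Mcm5 -0.23 to -0.02. Across all 7 groups 33 of the 40 genes differed by limma's F test, where 39.9% of all genes did, with the smallest p for Rrm2 (adjusted p = 0.00015). The count was 13 without the 4 libraries with other-tissue transcripts, where 17.4% of all genes differed. Among the 5 anti-arrhythmic groups 0 of the 40 differed, where 1.06% of all genes did. At an unadjusted p below 0.05 it was 4 of the 40, and the share of all genes at that threshold was not counted. The smallest adjusted p was 0.21, for Pold1, at 11.4, 11.6 and 10.96 FPKM with amiodarone, 10.9, 10.02 and 8.76 FPKM with metoprolol, 10.7, 11.7 and 11.9 FPKM with propranolol, 10.9, 12.3 and 10.9 FPKM with lidocaine and 9.51, 8.42 and 10.1 FPKM with ivabradine. A p that misses the threshold does not show that these 5 drugs act alike.

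**Figure D4:**
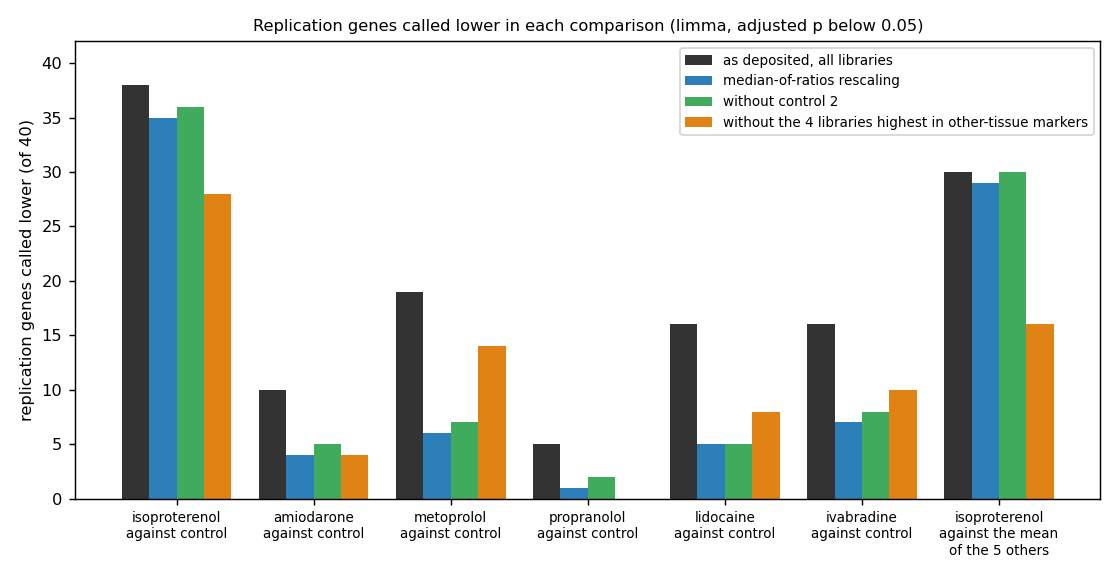
Number of the 40 tested genes that fell in each comparison (limma, adjusted p below 0.05), as deposited and under 3 other treatments of the libraries. Isoproterenol against control stays between 28 and 38, whereas the 5 anti-arrhythmic comparisons shrink after median-of-ratios rescaling (to between 1 and 7) and without control 2 (to between 2 and 8). Isoproterenol against the mean of the 5 anti-arrhythmic groups drops from 30 to its lowest without the 4 libraries with other-tissue transcripts, where metoprolol keeps 14 of 19.

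The scaling of the libraries bears on these counts. The median-of-ratios factors were 1.05 to 1.06 in the controls and 0.969 to 1.01 in the drug libraries. After rescaling, 35 genes fell with isoproterenol (median -0.46; 13.8% of all genes) and 29 against the mean of the anti-arrhythmics (median -0.32; 12% of all genes). With the other drugs 4 fell with amiodarone (9.66% of all genes), 6 with metoprolol (11.2%), 1 with propranolol (10.2%), 5 with lidocaine (14.9%) and 7 with ivabradine (11%), so the amiodarone, propranolol and lidocaine counts were near or below the share of all genes. Over all genes the share of calls that were higher became 52.8% with isoproterenol, where it was 24.5% as deposited. It became 58.4% with amiodarone (29.2% as deposited), 56.8% with metoprolol (30.2%), 55.1% with propranolol (26.1%), 53.6% with lidocaine (28.4%) and 55% with ivabradine (29.3%). Among the 40 replication genes the split did not turn, with 0 calls higher in any comparison after rescaling.

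Against the control, genes of the same pathway outside the 41 were called lower with isoproterenol more often than the 25.8% of all genes, other than in nucleotide supply. Of other licensing and origin firing genes 12 of 15 tested fell and 0 rose, led by the kinase that fires origins, Cdc7 (-0.54 ± 0.09, adjusted p = 0.00048, limma) and its activator Dbf4 (-0.67 ± 0.13, 0.00074). Of other fork and repair synthesis genes 16 of 22 fell and 0 rose, among them the helicases Pif1 (-0.77 ± 0.13) and Dna2 (-0.62 ± 0.10). Of other chromatin duplication genes 9 of 12 fell and 0 rose, led by the chaperone Asf1b (-0.93 ± 0.13) and the remodeller Hells (-0.68 ± 0.08). Of other nucleotide genes 4 of 14 fell and 0 rose, a share near that of all genes (median -0.11, against -0.09 for all genes), including Dut (-0.57 ± 0.09), which removes dUTP. Of other G1/S genes 20 of 31 fell and 2 rose. The largest of these falls was Cdkn1a (-1.34 ± 0.10, adjusted p = 8.7e-07), which encodes p21, an inhibitor of cyclin-dependent kinases and of PCNA. Cdkn1a averaged 18.2 ± 2.60 FPKM with isoproterenol, 37.8 to 43.0 FPKM over the anti-arrhythmic groups and 47.5 ± 3.45 FPKM in controls (SD, n = 3 each). Cdkn2c, which encodes the inhibitor p18, also fell (-0.69 ± 0.09). Against the mean of the anti-arrhythmics, where 13.3% of all genes fell and 9.51% rose, fewer of these genes were called, other than in nucleotide supply. Of licensing genes 3 of 15 fell and 2 rose, and Cdc7 was not called (-0.15 ± 0.07, adjusted p = 0.14, limma). Of fork genes 8 of 22 fell, of chromatin genes 8 of 12 and of nucleotide genes 4 of 14, with 0 higher in each. Of G1/S genes 11 of 31 fell and 1 rose. With the anti-arrhythmics the same lists had 4 to 7 of 15 licensing, 5 to 7 of 22 fork, 1 to 2 of 12 chromatin, 2 to 4 of 14 nucleotide and 7 to 15 of 31 G1/S genes lower, and 0 to 2 of each list higher, where 19.1% to 26.6% of all genes were lower. The chromatin and nucleotide counts were near or below those shares. Fork and G1/S counts were near them too with propranolol (5 of 22 and 7 of 31) and with lidocaine (7 of 22 and 7 of 31).

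Mitosis genes, set beside the replication genes, fell with isoproterenol as well. All 24 fell against the control, where 25.8% of all genes did, with a median of -0.87. Against the mean of the anti-arrhythmics all 24 fell too, where 13.3% of all genes did, with a median of -0.66. Ube2c, which feeds the anaphase-promoting complex, averaged 23.3 ± 4.24 FPKM with isoproterenol and 63.5 ± 8.68 FPKM in controls (SD, n = 3 each; -1.42 ± 0.14, adjusted p = 5.8e-06), and Ccnb1, a cyclin B, 5.26 ± 0.68 FPKM with isoproterenol and 13.7 ± 0.65 FPKM in controls (-1.24 ± 0.12). With the anti-arrhythmics mitosis genes were called lower in 10 of 24 cases with amiodarone, 5 with metoprolol, 4 with propranolol, 2 with lidocaine and 8 with ivabradine. The shares of all genes were 20.6% (amiodarone), 22% (metoprolol), 19.8% (propranolol), 26.6% (lidocaine) and 19.1% (ivabradine), so the metoprolol and propranolol counts were near the background and the lidocaine count below it.

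**Figure D5:**
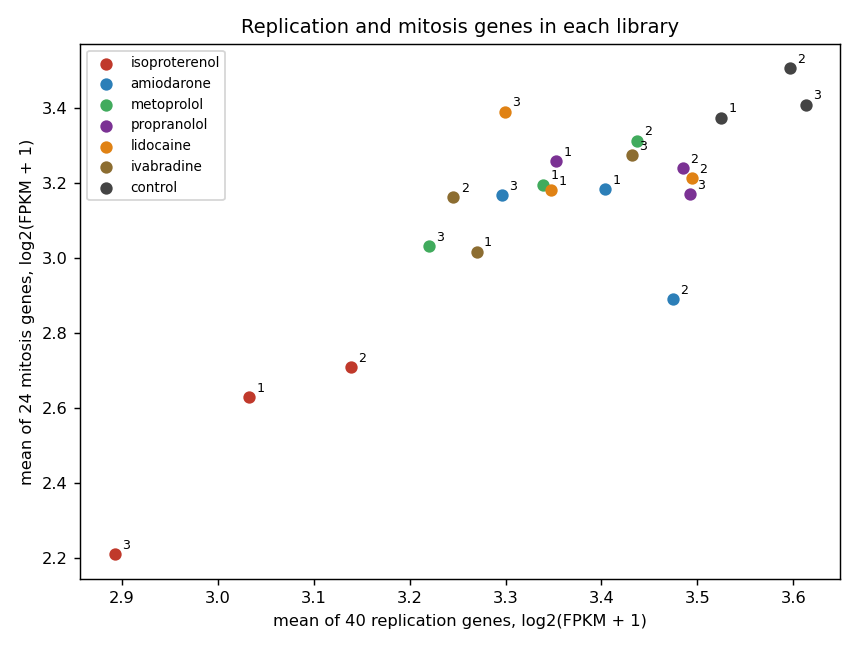
Mean log2(FPKM + 1) of the 40 replication genes (horizontal axis) and of 24 mitosis genes (vertical axis) in each of the 21 libraries, coloured by group and numbered by library. The isoproterenol libraries sit at the low end of both (2.89 to 3.14 and 2.21 to 2.71) and the controls at the high end (3.52 to 3.61 and 3.37 to 3.51), with the anti-arrhythmic libraries between on the horizontal axis.

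Markers of some other cell types moved with the drugs as well. With isoproterenol 25.8% of all genes fell and 8.38% rose. Of 12 macrophage markers 11 were tested and 9 fell (median -1.15), and their summed level was 116 to 230 FPKM with isoproterenol and 298 to 694 FPKM in controls. None of the 12 was at 0 in any library. Against the mean of the anti-arrhythmics 7 of the 11 fell (median -0.52). The anti-arrhythmics had lower macrophage markers than the control too, with 7 of 11 called with metoprolol, propranolol, lidocaine and ivabradine (medians -0.71 to -0.61) and 4 with amiodarone (median -0.42), and sums of 170 to 476 FPKM over the 15 libraries. Neutrophil markers fell in 6 of 7 tested cases of 9, with sums of 8.51 to 11.6 FPKM with isoproterenol and 23.5 to 141 FPKM in controls, and Ly6g was at 0 in 8 libraries and Mmp8 in 1. Fibroblast markers fell in 6 of 10 cases (2053 to 2202 FPKM with isoproterenol, 1919 to 3548 FPKM in controls), and endothelial markers in 4 of 10 (702 to 853 FPKM with isoproterenol, 775 to 880 FPKM in controls). With the anti-arrhythmics 3 to 5 of the 10 endothelial markers fell. Of 10 cardiomyocyte markers 5 rose (46683 to 49796 FPKM with isoproterenol, 46434 to 49825 FPKM in controls), as did 3 of 8 smooth muscle and pericyte markers, and 1 of 7 epicardial markers fell, a share below that of all genes. The rise of cardiomyocyte markers was not particular to isoproterenol. With the anti-arrhythmics 3 to 5 of the 10 rose against the control. Set against the mean of these drugs, isoproterenol had 0 cardiomyocyte markers higher and 1 lower. Of 10 erythroid markers 6 were tested, 0 fell and 1 rose (limma), with sums of 47.7 to 70.4 FPKM with isoproterenol and 44.6 to 58.6 FPKM in controls, while Hemgn was at 0 in 12 libraries and Klf1 in 2. Of 8 T and B cell markers 2 were tested and 0 passed either way. The part of these cell types in the fall of the replication genes was not tested.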

How the data were processed

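RNA of 21 heart libraries was sequenced on a BGISEQ-500 after selection by oligo dT or depletion of rRNA, which of them not being given. The submitters' processing notes name HISAT, Bowtie2 2.2.5 and the build mm9. The counter, annotation and filters are not given in the sources used here. The authors deposited 1 table of FPKM values without counts, all of whose value columns were mapped to libraries.

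limma 3.58.1 (R 4.3.3) fitted log2(FPKM + 1) by group mean over the 21 libraries together (14 residual degrees of freedom, empirical Bayes moderation with a mean-variance trend). A gene entered if 3 or more libraries had 1 FPKM or more. The models were tested on simulated data.

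Libraries of the same number did not pair (63 residual correlations, -0.54 to 0.29, median -0.03), so no block was modelled. Values of every library are given for isoproterenol and control for the 3 most abundant genes of each step and those of smallest p, with the anti-arrhythmic libraries as lowest, median and highest except for the top gene of each step. Non-member genes are the 2 of smallest p of each list, of which 1 is not reported here. Members and lists were chosen with earlier results of these data known. Alternatives were another pseudocount, 2 other filters, rescaling, the compared groups alone, no trend, robust moderation, a replicate block, a covariate of 4 Y-linked genes, and libraries left out.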

Additional observations from a re-analysis of the deposited data

How the results depend on the processing

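Over 31 alternative settings, 21 of them leaving out 1 library, the count of replication genes lower with isoproterenol against the control was 28 to 39, within 1.5 times of the 38 as reported, and 27 of the 38 calls held in each setting (14 of the 30 against the mean of the anti-arrhythmic groups). No gene followed through the settings changed sign in a called comparison (80 calls of 19 genes, 2472 values, of which 238 missed the threshold). The counts that moved by more than 1.5 times were these. Without the 4 libraries with other-tissue transcripts, the count was 16 for isoproterenol against the mean of the anti-arrhythmics, 13 for the F test of 7 groups, 4 for amiodarone, 10 for ivabradine, 8 for lidocaine and 0 for propranolol. After rescaling it was 4 for amiodarone, 7 for ivabradine, 5 for lidocaine, 6 for metoprolol and 1 for propranolol, and without a filter 9 for ivabradine, 9 for lidocaine and 3 for propranolol. Leaving out 1 library gave 5 to 13 for amiodarone, 5 to 19 for ivabradine, 5 to 19 for lidocaine, 7 to 22 for metoprolol and 1 to 6 for propranolol. The shares of all genes moved with the settings too, from 11.3% to 27.5% lower for isoproterenol against the control. Without a filter 12.1% of all genes fell with propranolol. The counts in this section are not set against such shares one by one. Beyond the composition of the fit, the cause was not tested. With the number in the titles as a replicate block, 39 genes were lower with isoproterenol, 11 with amiodarone, 21 with metoprolol, 5 with propranolol, 16 with lidocaine, 18 with ivabradine and 30 against the mean of the anti-arrhythmics, so no count moved by over 1.5 times. With FPKM alone and 3 libraries a group, the counting error of low genes cannot be given, and doses are not given.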

Other observations

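Amiodarone 2 and lidocaine 3 were apart from the other anti-arrhythmic libraries in how replication and mitosis genes went together. Amiodarone 2, which also holds the most Sftpc, had a mean of 3.47 over the 40 replication genes and 2.89 over the 24 mitosis genes, on the log2(FPKM + 1) scale, and this mitosis mean was the lowest of the 15 anti-arrhythmic libraries. Lidocaine 3 had 3.30 over the replication genes and 3.39 over the mitosis genes, the highest mitosis mean of the 15.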
